A study of Mus musculus with 9 samples.

Results

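The PIM kinase and SOCS genes described here are Pim1, Pim2, Pim3, Socs1, Socs2, Socs3 and Cish. They were chosen by gene symbol, and these 7 of the 43346 genes in the deposited RNA-Seq table each had 1 row. They were followed in lung fibroblasts of aged male Col1a1-GFP mice on an FVB background, in which the collagen I promoter drives green fluorescent protein. The mice were 18 months old in the protocol and 72 weeks old in the sample labels, and were studied 30 days after 1 intratracheal dose of saline (aged sham, 4 libraries) or bleomycin (aged bleo, 5 libraries). Cells were sorted by FACS as positive for GFP and negative for the leukocyte marker CD45, the endothelial marker CD31 and the epithelial marker EpCAM. The gate keeps only cells with an active collagen reporter, and the libraries hold all such cells of a preparation together. The study asked which transcriptional programs keep lung fibrosis from resolving in aged mice. Young mice were not analysed here.

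Cytokines of the IL-6 family bind receptors that share the gp130 subunit, which activates JAK kinases and, through them, the transcription factor STAT3. Growth hormone acts mainly through STAT5. The activated STATs induce the SOCS genes and Cish, whose proteins bind the receptors or the JAKs and end the signal, so that their transcripts are a common readout of recent signaling. STATs also induce the PIM genes. PIM proteins are serine/threonine kinases that are active once made, which ties their activity closely to their expression, and they promote survival and growth. In fibroblasts, IL-6 family signaling is studied for its part in inflammation and matrix production.

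The counts summed to between 49921946 and 68260600 per library, and no library was a duplicate of another of its group, as the chi-square per degree of freedom between their counts was at least 30.9, where sampling noise gives about 1. Levels of a gene between libraries are given as CPM (counts scaled to library size, TMM-normalized), and levels between genes as the deposited FPKM, which divides by gene length. A gene was called when the FDR of edgeR's quasi-likelihood test over 16877 genes was under 0.10 and the fold change was over 1.5. The fibroblast marker Pdgfra was at 775 to 986 CPM in aged sham, against 440.2 to 865 CPM in aged bleo, and Col1a1, the gene behind the reporter, was at 3649 to 4559 and 13560 to 25954 CPM. The transcripts of the sorted-out markers were not all near 0, as Ptprc (CD45) was at 42.3 to 169 CPM in aged sham, against 30.6 to 183 CPM in aged bleo, with the top value of each group in library 4. Pecam1 (CD31) lay between 2.44 and 6.70 CPM and Epcam between 0.409 and 1.20 CPM. The study describes its data points as independent mice or biological replicates, and the libraries were taken as separate samples. Fewer cells of a type and less RNA per cell cannot be told apart in such bulk libraries.

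Of the 7 genes, all of which passed the count filter with mean counts of 163 (Pim2) to 40879 (Socs3), 4 were called between aged bleo and aged sham. Socs3, Pim1 and Socs1 were lower in aged bleo and Socs2 was higher. Among all genes tested, 23.8% were called, 12.3% higher and 11.5% lower, so that calls were common in this comparison. The values of Socs2, Socs3 and Pim1 did not overlap between the groups, which was true of 32.2% of all genes tested. The median log2 fold change of the 7 genes was -0.58, beside 0.01 for all genes tested.

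**Figure D1:**
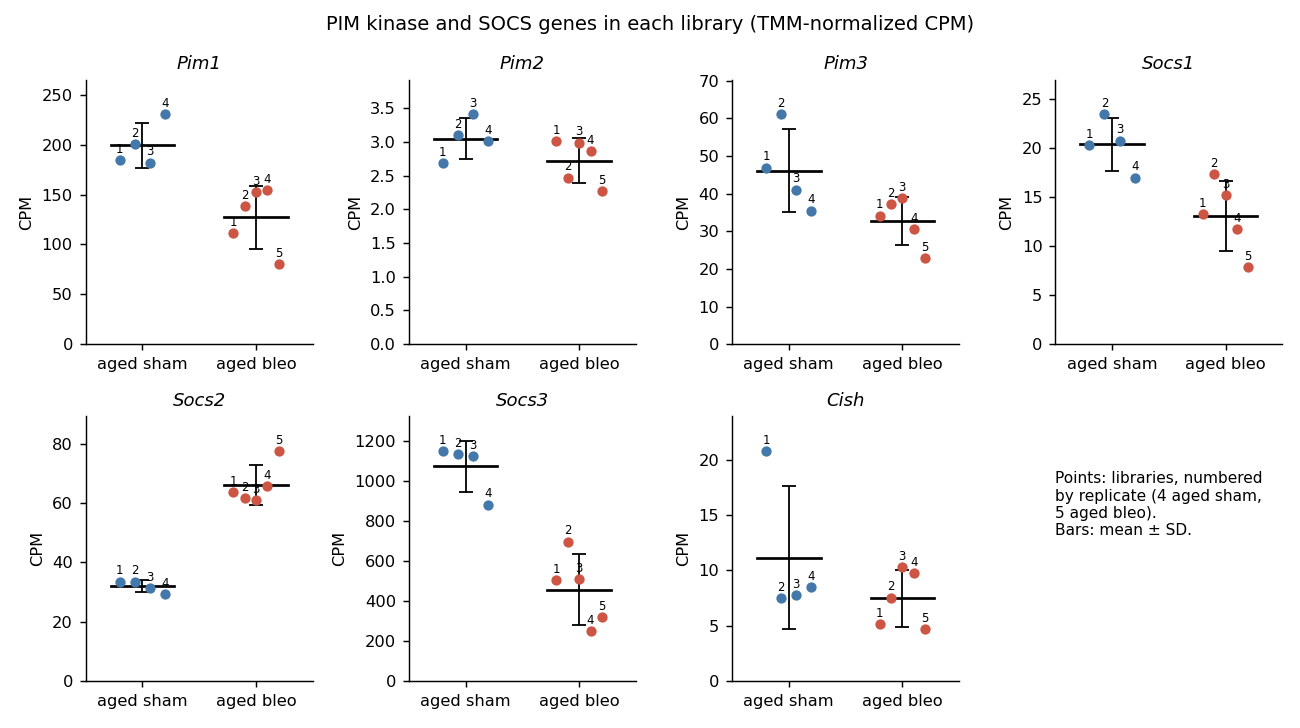
CPM of the 7 genes in each library on linear axes from 0, with points numbered by replicate and bars for the mean and SD of 4 aged sham and 5 aged bleo libraries. Socs2 is higher and Socs3 and Pim1 are lower in the 5 aged bleo libraries than in any aged sham library, and Cish is set apart by aged sham 1 at 20.8 CPM.

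SOCS3 binds gp130 and the attached JAKs and is the main brake on IL-6 signaling. Socs3 (chr11:117966079-117970047, GRCm38, minus strand) was at 1149, 1132, 1124 and 881 CPM in aged sham libraries 1 to 4. It was at 503, 696, 510.4, 249 and 319.9 CPM in aged bleo libraries 1 to 5. Every aged bleo library was below every aged sham library, and the values within aged bleo differed by up to 2.80-fold. The mean fell from 1072 ± 127 (SD, n = 4) to 455 ± 176 CPM (SD, n = 5), a 2.35-fold lower level (log2 fold change -1.23, SE 0.27, 95% confidence interval -1.84 to -0.63, FDR 0.00859). Socs3 was called under each of the 22 other settings tried.

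SOCS1 inhibits JAKs directly and limits interferon signaling above all. Socs1 (chr16:10783808-10785536, minus strand) was at 20.3, 23.5, 20.8 and 17.0 CPM in aged sham, against 13.3, 17.4, 15.2, 11.7 and 7.84 CPM in aged bleo. The groups overlapped only between aged sham 4 and aged bleo 2. The log2 fold change was -0.64 (SE 0.20, 95% confidence interval -1.10 to -0.18, FDR 0.0376), a 1.56-fold lower level that lies close to the limit of 1.5-fold. Without aged sham 2 it was -0.57 and without aged bleo 5 it was -0.50, both short of that limit.

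SOCS2 is known for restraining growth hormone receptor signaling, and Socs2 (chr10:95385362-95417180, minus strand) was the member that moved the other way. Its level was 33.5, 33.6, 31.3 and 29.3 CPM in aged sham. In aged bleo it was 63.6, 61.8, 61.2, 65.8 and 77.6 CPM. The lowest aged bleo library was well above the highest aged sham library, and the spread within each group was small. The mean rose 2.07-fold, from 31.9 ± 2.02 to 66.0 ± 6.75 CPM (log2 fold change 1.05, SE 0.09, 95% confidence interval 0.85 to 1.24, FDR 6.81e-05), and the gene was called under all 22 other settings.

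CIS, the product of Cish (chr9:107296026-107302784, plus strand), is induced by STAT5 and binds cytokine receptors. Cish was at 20.8, 7.51, 7.77 and 8.47 CPM in aged sham, against 5.15, 7.53, 10.3, 9.73 and 4.65 CPM in aged bleo. Aged sham 1 stood above every other library, and the other 3 aged sham libraries lay within the aged bleo range. The log2 fold change of -0.58 (SE 0.37, FDR 0.248) did not pass the test, and it was -0.08 without aged sham 1. That library also held the most transcripts of Cxcl9, a chemokine induced by interferon (15.2 CPM, beside 0.253 to 1.05 CPM in the other aged sham libraries), and, within aged sham, of the cell cycle gene Mki67 (24.0 CPM, beside 3.17 to 4.92 CPM). The summed level of 6 B cell genes was likewise highest there, at 13.1 CPM, beside 4.28 to 6.09 CPM in the other aged sham libraries and 3.31 to 6.60 CPM in aged bleo. Their part in the Cish value was not tested. Gm17040 and Gm17041 overlap Cish on the opposite strand and had 5.61% to 7.48% and 15.8% to 25.3% of its counts. Because the library kit does not mark strand, their reads cannot be told from those of Cish where they overlap.

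The start regions of the feedback genes are shown because STAT and IRF factors bind short DNA motifs in such regions, and Socs3, Socs1, Cish and Pim1 differed in the motifs they held. A RefSeq promoter sequence (GRCm38.p6, 250 bases before to 50 after the RefSeq start) was matched for 6 of the 7 genes, all but Socs2. For Socs3 and Cish this start is not the 5′ end of the gene span given above. Their windows lie inside that span, past its 5′ end at chr11:117970047 and chr9:107296026. The bases before those ends were not searched. They were searched on both strands for the STAT motif TTCNNNGAA, which reads the same on both strands, and for the core of the IRF motif, GAAA and GAAA with any 2 bases between them. No match of the STAT motif overlapped one of the IRF motif in the members. Among 32851 promoters of 300 bases, 8.30% held the STAT motif and 3.44% the IRF motif. The sequences run from 5′ to 3′ on the strand of the gene, and capitals mark the matches. In the labels the start is the RefSeq start, whose first transcribed base is counted as 1.

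Socs3, chr11:117969367-117969616, minus strand, the 250 bases before the start: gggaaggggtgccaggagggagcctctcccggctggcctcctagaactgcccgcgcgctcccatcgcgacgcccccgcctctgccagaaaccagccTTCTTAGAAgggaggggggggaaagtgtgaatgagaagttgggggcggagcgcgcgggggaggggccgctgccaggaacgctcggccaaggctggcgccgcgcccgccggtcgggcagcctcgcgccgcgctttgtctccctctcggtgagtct
Socs1, chr16:10785537-10785786, minus strand, the 250 bases before the start: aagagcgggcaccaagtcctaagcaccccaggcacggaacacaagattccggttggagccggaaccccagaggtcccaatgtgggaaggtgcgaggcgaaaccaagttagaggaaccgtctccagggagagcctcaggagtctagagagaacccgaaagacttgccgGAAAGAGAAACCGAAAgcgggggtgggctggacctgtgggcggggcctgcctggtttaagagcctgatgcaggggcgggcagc
Cish, chr9:107296649-107296678, plus strand, bases -10 to 20: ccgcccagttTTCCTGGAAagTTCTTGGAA
Pim1, chr17:29490535-29490784, plus strand, the 250 bases before the start: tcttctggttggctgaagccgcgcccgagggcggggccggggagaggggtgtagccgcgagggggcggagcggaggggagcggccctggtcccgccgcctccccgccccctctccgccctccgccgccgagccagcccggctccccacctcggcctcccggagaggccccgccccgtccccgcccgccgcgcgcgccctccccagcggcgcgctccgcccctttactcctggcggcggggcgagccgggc

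In these windows Socs3 held 1 STAT motif, which began 154 bases before its RefSeq start. Cish held 2, at bases 1 and 12 from its RefSeq start. Only 0.460% of all promoters had 2 or more STAT motifs. Socs1 held 2 IRF motifs that overlap each other, beginning 83 and 77 bases before the start. Neither motif was found in the windows of Pim1, at both of its RefSeq starts, Pim2 or Pim3. The GC content was 81.3% in the printed start of Pim1, 73.3% in Socs3, 63.3% in Socs1 and 53.3% in Cish over 300 bases, beside a median of 52.7% over all promoters. The matches are a description of the sequence, and binding was not measured. Of the STAT motif carriers, Socs3 was lower in aged bleo and Cish was not called.

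PIM1 is the family member most studied in cytokine responses, and Pim1 (chr17:29490812-29496111, plus strand) was the PIM gene that was called. Its level was 185, 200.4, 182 and 230.5 CPM in aged sham. In aged bleo it was 111, 138, 152, 155 and 80.0 CPM. Every aged bleo library was below every aged sham library, although the distance between aged bleo 4 and aged sham 3 was small beside the range within aged bleo. The mean fell from 199 ± 22.3 to 127 ± 31.5 CPM (log2 fold change -0.65, SE 0.18, 95% confidence interval -1.06 to -0.23, FDR 0.0245), a 1.57-fold lower level just past the limit. It was -0.57 without aged sham 4 and -0.52 without aged bleo 5, both short of 1.5-fold. Within the libraries whose deposited names end in 4, which are the 4 aged sham libraries and aged bleo 4, aged bleo 4 was below the others at 155 CPM, and with this ending as a term, so that the group effect rests on aged bleo 4 alone, the log2 fold change was -0.37. What the ending stands for is not given in the sources used here, and the other aged bleo libraries have endings that no aged sham library has.

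Gm26885, an antisense gene that overlaps Pim1, had 17.5% to 22.1% as many counts as Pim1 in each library. It was at 41.2 ± 4.25 CPM in aged sham, against 25.3 ± 6.10 CPM in aged bleo (log2 fold change -0.71, SE 0.18, FDR 0.0154), and -0.58 without aged bleo 5. As with Cish, reads of the overlap cannot be assigned to a strand, and how they were counted is not given in the sources used here. The antisense gene was therefore not taken as a separate measurement of the change.

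PIM3 and PIM2 share the substrates of PIM1 to a large extent. Pim3 (chr15:88862186-88865718, plus strand) was at 46.9, 61.1, 41.1 and 35.5 CPM in aged sham, against 34.2, 37.2, 38.9, 30.6 and 22.8 CPM in aged bleo. The groups overlapped, since aged sham 4 was below aged bleo 2 and aged bleo 3. Its log2 fold change of -0.50 (SE 0.19, 95% confidence interval -0.92 to -0.08, FDR 0.0651) passed the FDR limit but not the fold limit. It was -0.61 without aged sham 4, which is past both limits. Pim2 (chrX:7878262-7883432, plus strand) was the lowest of the 3 and its groups overlapped in part, at 2.68 to 3.41 CPM in aged sham, against 2.27 to 3.01 CPM in aged bleo. The log2 fold change of Pim2 was -0.16 (95% confidence interval -0.48 to 0.16, FDR 0.405), so that levels in aged bleo of 0.715 to 1.12 times those in aged sham lie within its interval.

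**Figure D2:**
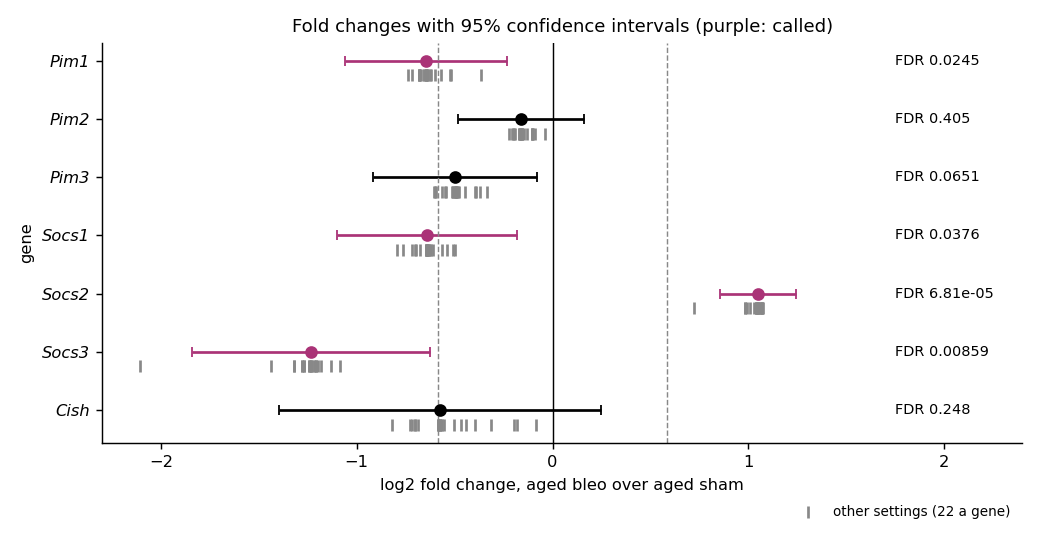
Log2 fold change of aged bleo over aged sham for each gene with its 95% confidence interval (points and bars, purple where called), the values under 22 other settings (grey ticks) and the 1.5-fold limits (dashed lines). Socs2 at 1.05 and Socs3 at -1.23 lie well past the limits, while Pim1 at -0.65 and Socs1 at -0.64 lie close to one of them and have ticks on both sides of it.

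Leaving out aged bleo 5 brought the count of called genes from 4 to 2, as Pim1 and Socs1 then fell short of the fold limit. Without aged sham 4 and aged bleo 4, the libraries with the most leukocyte transcripts, 5 were called, with Pim3 (log2 fold change -0.60) added. In aged bleo 4 alone, set against the aged sham libraries of the same name ending, Socs3 (249 CPM), Socs1 (11.7 CPM) and Pim1 were below and Socs2 (65.8 CPM) was above every aged sham value. With 1 library on that side these are values without a test.

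Per length, Socs3 was by far the most abundant of the 7 genes in both groups, at 156 ± 20.5 FPKM in aged sham and 67.3 ± 24.7 FPKM in aged bleo. Pim1 came next at 31.7 ± 3.13 and 20.7 ± 5.20 FPKM, without overlap with its neighbours in the order. Pim3 (8.02 ± 2.01 and 5.80 ± 1.04 FPKM) and Socs1 (7.01 ± 1.02 and 4.59 ± 1.19 FPKM) followed, and their ranges overlapped in both groups. Socs2 was the fifth at 1.41 ± 0.106 FPKM in aged sham and 2.98 ± 0.347 FPKM in aged bleo. It overlapped Cish but not Socs1 in aged sham, and Socs1 but not Cish in aged bleo. Cish (0.727 ± 0.419 and 0.501 ± 0.173 FPKM) and Pim2 (0.458 ± 0.0486 and 0.419 ± 0.0537 FPKM) were the lowest and overlapped in both groups. The order of the means was thus equal in aged sham and aged bleo, with a narrower distance between Socs1 and Socs2 in the latter. This order depends on the deposited gene lengths, 9531 bases for Socs2 and 1220 bases for Socs1. In CPM, Socs2 was above Socs1 in both groups, at 31.9 and 20.4 in aged sham and at 66.0 and 13.1 in aged bleo.

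A difference in the makeup of the PIM family did not pass the test. Pim1 made up 78.9% ± 4.39 of the summed FPKM of the 3 PIM genes in aged sham and 76.6% ± 2.89 in aged bleo, a difference of -2.32 percentage points (two-sided exact permutation test over 126 splits, p = 0.397, adjusted p = 0.397 over the 2 families). The summed level was 40.1 ± 3.27 FPKM in aged sham and 27.0 ± 6.02 FPKM in aged bleo. In the SOCS family the makeup differed. Socs3 made up 94.4% ± 0.224 of the summed FPKM of Socs1, Socs2, Socs3 and Cish in aged sham and 88.4% ± 3.52 in aged bleo, a difference of -5.998 points (the same exact permutation test, p = 0.0159, adjusted p = 0.0317). The smallest p the design allows is 0.00794. The share of Socs2 was 0.859% ± 0.0656 in aged sham and 4.46% ± 1.95 in aged bleo, and that of Socs1 was 4.26% ± 0.287 and 6.35% ± 1.68. Of the summed CPM, which is not divided by gene length, Socs2 made up 2.83% in aged sham and 13.5% in aged bleo. The difference in the Socs3 share was then -11.9 points. The summed level of the 4 genes was 165 ± 21.6 FPKM in aged sham and 75.3 ± 25.4 FPKM in aged bleo.

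**Figure D3:**
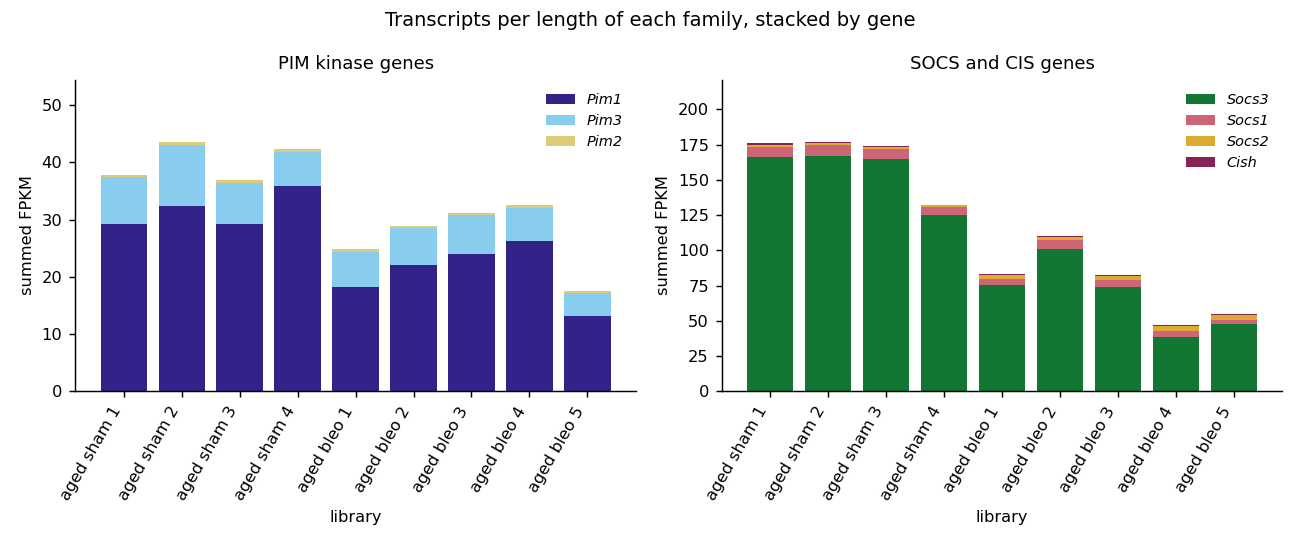
Deposited FPKM in each library, stacked by gene from 0, for the 3 PIM genes (left) and for Socs1, Socs2, Socs3 and Cish (right). Pim1 fills most of each PIM bar, and Socs3 fills at least 82.7% of each SOCS bar, the lowest share being that of aged bleo 4.

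The libraries of aged bleo varied more among themselves than those of aged sham for Pim1, Socs1 and Socs3. The coefficient of variation of the CPM values was 24.8%, 27.6% and 38.7% in aged bleo, beside 11.2%, 13.0% and 11.9% in aged sham. It was also higher in aged bleo for Pim2 (12.2%, beside 9.81%) and Socs2 (10.2%, beside 6.32%). For Pim3 (19.5%, beside 23.8%) and Cish (34.4%, beside 57.9%) it was lower in aged bleo. The difference in spread was not tested. Aged bleo 5 had the lowest level of its group for all 3 PIM genes, Socs1 and Cish, and the highest of Socs2. It also had the highest Col1a1 level of its group, at 25954 CPM. The lowest Socs3 level was that of aged bleo 4.

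To describe which genes varied like each member from library to library, Pearson's r of log2 CPM was computed over the 9 libraries after subtracting the group means, among 11889 genes, as a description without a test. The gene most like Socs3 was 9430020K01Rik (r = 0.994), and next came Clmn (r = 0.993) and Sun1 (r = 0.993). For Socs1 these were Clk3 (r = 0.990), Gm7008 (r = 0.982) and Stat5b (r = 0.981). For Socs2 they were Tmtc4 (r = 0.989), Orc2 (r = 0.949) and Ccbe1 (r = 0.946), and for Cish they were Traf1 (r = 0.966), H2-Q7 (r = 0.926) and Gm26992 (r = 0.925). Pim1 was most like its overlapping gene Gm26885 (r = 0.956), then Sorl1 (r = 0.949) and Rasgef1b (r = 0.946). Pim3 was most like Mylip (r = 0.976), Cd40 (r = 0.974) and Csrnp1 (r = 0.964), and Pim2 was most like Thap7 (r = 0.975), Zbtb45 (r = 0.952) and Mief2 (r = 0.939). The 9 points of each r share library and depth, and the highest of 11889 values was taken.

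Genes of other cell types and of the rapid response to stress moved beside the members. Of 19 immediate early genes, which many stimuli and tissue dissociation induce within minutes, 12 were lower and 2, the heat shock genes Hspa1a and Hspa1b, were higher in aged bleo. Their summed level was 21575 to 27848 CPM in aged sham, against 8978 to 17690 CPM in aged bleo, without overlap, and aged bleo 4 and 5 had both the lowest sums and the lowest Socs3 levels. The 12 neutrophil genes had no call by edgeR, DESeq2 or limma and none with an unadjusted p under 0.05. Their sums were 233 to 1369 CPM in aged sham, against 116 to 1230 CPM in aged bleo. Their median log2 fold change was -0.51. The highest neutrophil sums, those of aged sham 4 and aged bleo 4, were in the libraries with the highest Pim1 level of each group, at 230.5 and 155 CPM. Csf3r, which neutrophils express, was at 370.1 and 235 CPM there, beside 20.3 to 182 CPM in the others. Without aged sham 4 and aged bleo 4 the log2 fold change of Pim1 was -0.67 (FDR 0.0408) and that of Socs3 -1.18 (FDR 0.00957). Leaving them out did not balance the neutrophil sums. In the libraries that remained, these were 233 to 631 CPM in aged sham and 116 to 199 CPM in aged bleo, without overlap. The part of neutrophil transcripts in these fold changes was not tested.

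Of the other lists, the macrophage genes had 7 of 12 tested called higher, with sums of 215 to 401 CPM in aged sham, against 619.8 to 2021 CPM in aged bleo. All 8 cell cycle genes were called higher, with sums of 10.3 to 59.5 and 39.3 to 307 CPM. The endothelial sums were lower in each aged bleo library (89.1 to 143 CPM) than in any aged sham library (255 to 298 CPM). Tek, an angiopoietin receptor, made up much of this sum and was called lower, from 161 ± 12.9 to 28.9 ± 18.8 CPM, while Kdr and Egfl7 were called higher and the other 5 endothelial genes tested were not called. Of 5 B cell genes tested, all at low levels of up to 2.94 CPM on average, 4 were called lower and 1, Cd22, was called higher. The pan-leukocyte sums overlapped, at 152 to 549.9 and 163 to 852 CPM. The fibroblast markers were themselves divided, with 8 of 10 called. Col1a1, Col1a2, Col3a1 and Npnt were higher in aged bleo. Dcn, Pi16, Dpt and Tcf21 were lower, with log2 fold changes of -1.54, -1.51, -1.45 and -1.10, while Pdgfra and Lum were not called. The part of other cells, of a shift among fibroblasts or of the stress response in the levels of the PIM and SOCS genes was not tested.

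**Figure D4:**
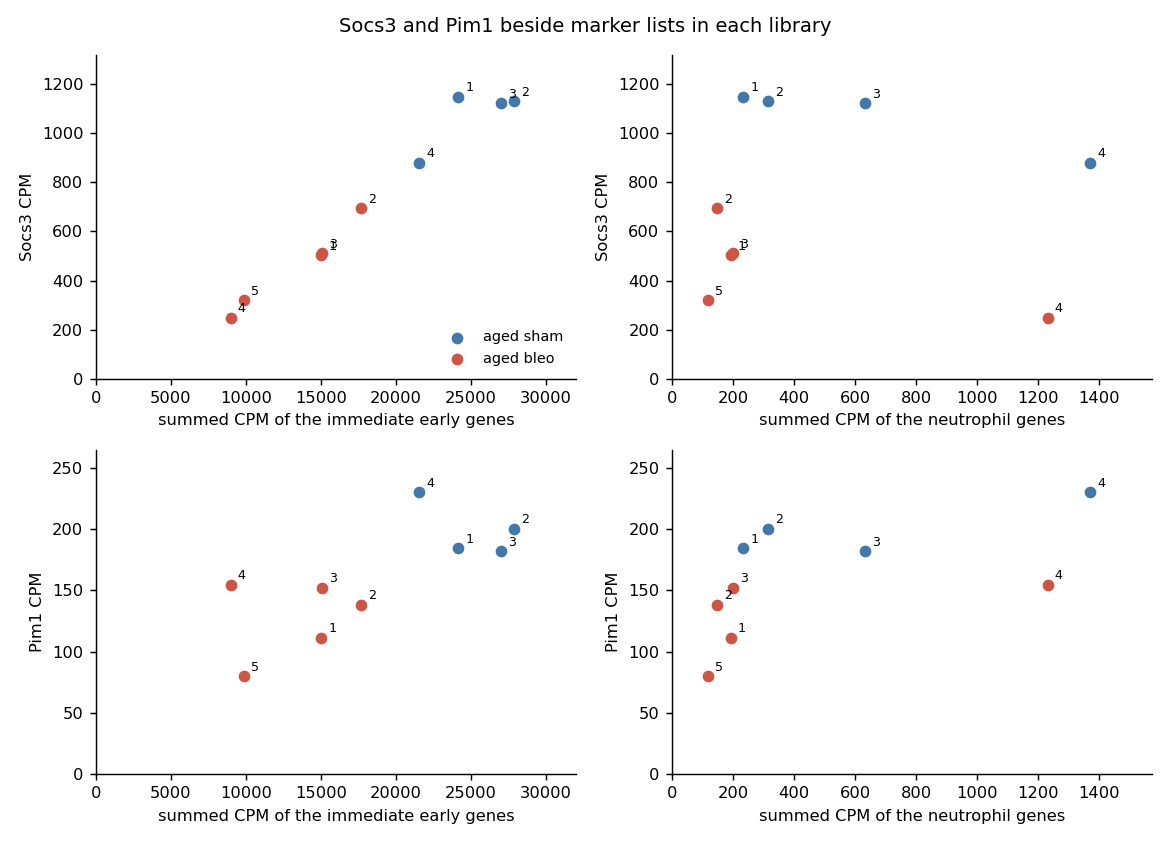
CPM of Socs3 (top) and Pim1 (bottom) in each library against the summed CPM of 19 immediate early genes (left) and of 12 neutrophil genes (right), on linear axes from 0, with libraries numbered by replicate. The aged bleo libraries lie lowest in both Socs3 and immediate early genes, and aged sham 4 and aged bleo 4 stand apart with neutrophil sums of 1369 and 1230 CPM.

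The wider pathway was described from 10 lists of ligands, receptors, kinases, STATs, inhibitors, induced genes and PIM substrates. Of the 86 genes tested on them, 27 (31.4%) were called, 17 higher and 10 lower, beside 23.8% of all genes tested. The median log2 fold change over these genes was 0.11. Socs1, itself a member, is also on the PIM substrate list and is counted in these numbers.

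The IL-6 family ligands split. Of 7 genes, 3 were higher and 1 was lower in aged bleo. Il6 itself was at 365, 427, 366 and 279.7 CPM in aged sham, against 118, 178, 199, 52.7 and 96.1 CPM in aged bleo, so that it fell without overlap (log2 fold change -1.48, SE 0.34, FDR 0.0101). Il11, a profibrotic cytokine, was at 0.83 to 1.34 CPM in aged sham and rose to 10.3 to 39.8 CPM in aged bleo (log2 fold change 4.52, SE 0.40, FDR 0.000105). Lif rose from 44.7 ± 7.20 to 200.3 ± 67.7 CPM (log2 fold change 2.16, FDR 0.000286), and Ctf1, which encodes cardiotrophin 1, rose by 0.82 on the log2 scale (FDR 0.0164).

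Of the 6 receptor genes of the family, 3 were lower in aged bleo and none was higher. Il6ra, the IL-6 receptor, fell from 48.3 ± 1.70 to 23.1 ± 6.07 CPM (log2 fold change -1.06, FDR 0.00273). Il11ra1, the IL-11 receptor, had a log2 fold change of -1.10 (FDR 0.0216) and Cntfr, the receptor of ciliary neurotrophic factor, had a log2 fold change of -1.52 (FDR 0.00233). Il6st, which encodes gp130, was at 949 to 1121 CPM in aged sham, against 499 to 939 CPM in aged bleo, and its log2 fold change of -0.39 (FDR 0.112) did not pass the test. Of 13 receptors that act through STAT5 or interferon signaling, 3 were higher and none was lower (23.1% called, beside 23.8% of all genes tested). These were Il7r (log2 fold change 2.37, FDR 0.0406), Il2rg (1.41, FDR 0.0268) and Epor (1.32, FDR 0.00214), all at low levels of up to 18.2 CPM on average. The groups of Il7r overlapped, at 0.759 to 1.86 CPM in aged sham, against 1.49 to 23.2 CPM in aged bleo. Il7r had a log2 fold change of 1.24 without aged bleo 4 and was still called.

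Among the JAK kinases, Jak3 and Jak2 were higher and the other 2 were not called. Jak3, which pairs with the common gamma chain encoded by Il2rg, rose from 9.17 ± 1.05 to 27.8 ± 4.88 CPM (log2 fold change 1.60, SE 0.14, FDR 9.62e-05). Jak2 had a log2 fold change of 0.64 (FDR 0.0275), with overlap through aged sham 1, and was short of 1.5-fold without aged sham 2 (0.54), aged sham 4 (0.58) or aged bleo 3 (0.58). Jak1, the main kinase at gp130, had a log2 fold change of -0.46 (FDR 0.0126), under the fold limit. None of the 6 STAT genes on the list was called in the main edgeR fit, by DESeq2 or by limma. In that edgeR fit 3 had an unadjusted p under 0.05. Stat3 was at 268 ± 30.1 and 305 ± 19.8 CPM (log2 fold change 0.18, FDR 0.154) and Stat5a at 24.0 ± 1.96 and 26.0 ± 2.32 CPM (0.12, FDR 0.315). Stat5b had a log2 fold change of -0.48 (FDR 0.0199), under the fold limit. In the fit with the library name ending as a term, the group effect rests on aged bleo 4 alone. There Stat5b was at -0.62, Jak1 at -0.72 and Il6st at -1.03, all past the fold limit.

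Of the other inhibitors of the pathway, the 4 remaining SOCS genes had no call by edgeR, DESeq2 or limma, and 1, Socs4, had an unadjusted p under 0.05 (log2 fold change -0.26, FDR 0.0461). Of 10 phosphatases, PIAS proteins and adaptors, 1 was called. That was Ptpn1, which encodes the phosphatase PTP1B and was higher (log2 fold change 0.62, FDR 0.000761), though at 0.57 and under the fold limit without aged bleo 4.

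Genes known to be induced by STAT3 were called in both directions. Of 15 STAT3-induced genes, 9 (60%) were called, beside 23.8% of all genes tested. Of these, 4 were higher and 5 were lower, and the list's median log2 fold change was 0.16. The higher ones were Saa3 (log2 fold change 3.87) and Lcn2 (1.62), both acute-phase genes, Ccnd1 (1.88), a cyclin of early cell cycle, and Hif1a (0.91). The lower ones were Myc (-1.58), Cebpd (-1.36), Icam1 (-1.01), Fos (-0.87) and Junb (-0.83), of which Fos and Junb are immediate early genes as well. Hif1a, Cebpd, Icam1, Fos and Junb were named after their values were seen. The FDR values of these 9 genes lay between 0.000341 and 0.0529, and Icam1 missed the FDR limit without aged sham 1 or aged sham 2 (0.108 for both). The groups of Lcn2 and Ccnd1 overlapped, and those of the other called genes of this list did not. The fold change of Ccnd1 moved to 2.497 on the log2 scale when aged sham 1 was left out. Of 7 STAT5-induced genes tested, 2 were higher and none was lower (28.6% called, beside 23.8% of all genes tested). Igf1, a growth factor that growth hormone induces through STAT5, rose from 215 ± 33.6 to 1022 ± 215 CPM (log2 fold change 2.25, SE 0.19, FDR 7.82e-05), and Ccnd2 had a log2 fold change of 0.69 (FDR 0.0031), or 0.58 and under the fold limit without aged sham 2.

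Transcripts of proteins that PIM kinases phosphorylate were tested for 16 genes. Of these, 2 were higher and 2 lower (25% called, beside 23.8% of all genes tested). Cdc25c and Cdc25a, phosphatases of the cell cycle, were higher (log2 fold changes 3.95 and 0.60, FDR 0.015 and 0.00697). Cdc25c averaged only 0.197 CPM in aged sham, against 3.15 CPM in the aged bleo libraries, its groups overlapped, and its log2 fold change was 5.36 without aged sham 1. Cdc25a fell short of the fold limit without aged sham 3 (0.58), aged sham 4 (0.56) or aged bleo 4 (0.51). Myc and Socs1, given above, were lower. Nfatc1, a transcription factor downstream of PIM1, was at 40.6 ± 5.91 CPM in aged sham, against 40.8 ± 5.50 CPM in aged bleo (log2 fold change 0.01, FDR 0.963). Bad, whose protein promotes apoptosis unless phosphorylated, had a log2 fold change of 0.22 (FDR 0.169). Phosphorylation was not measured.

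**Figure D5:**
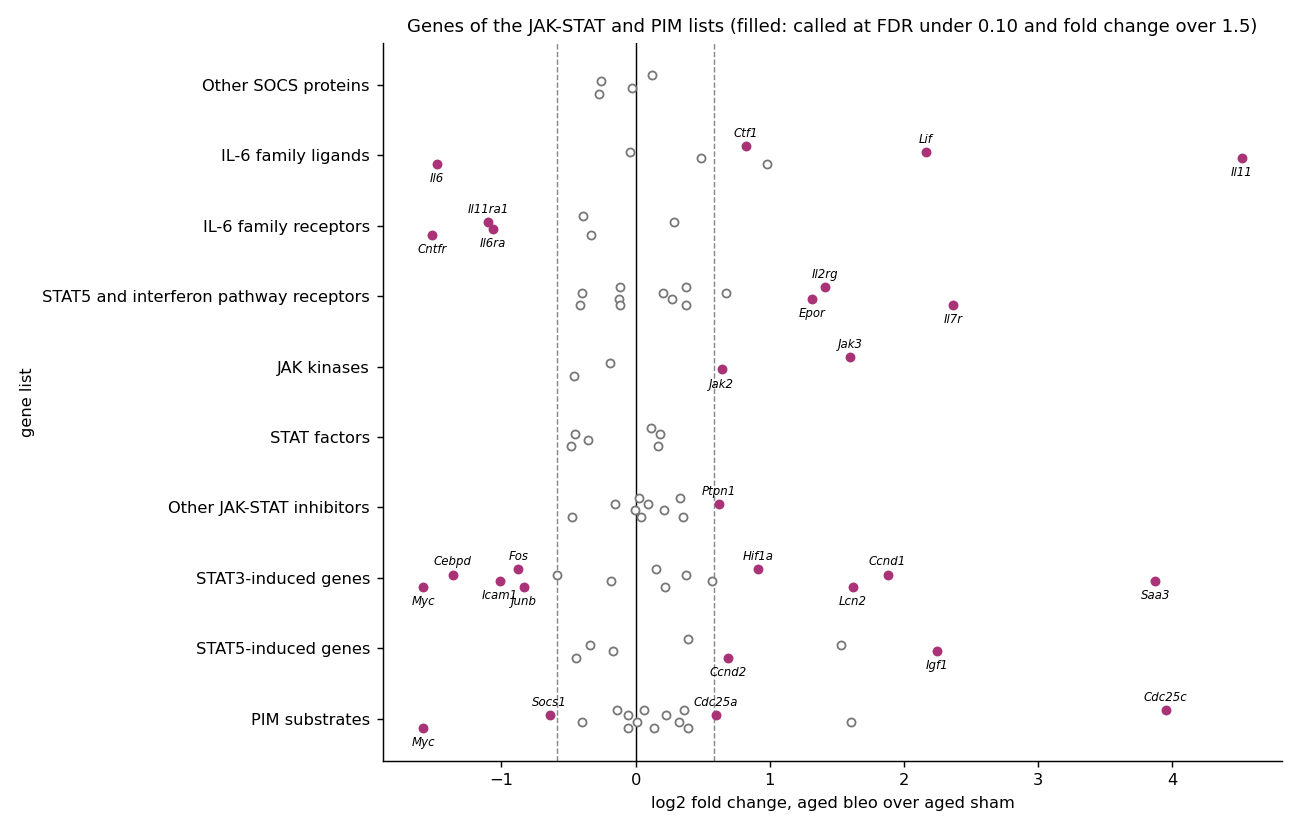
Log2 fold change of aged bleo over aged sham for the genes of 10 JAK-STAT and PIM lists, with called genes filled and named and the 1.5-fold limits dashed. IL-6 family ligands reach from -1.48 (Il6) to 4.52 (Il11), the called receptors of the family lie below -1, and no gene of the STAT list is past a limit.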

How the data were processed

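RNA was measured in 4 aged sham and 5 aged bleo libraries, made by the authors from polyadenylated RNA with a kit that does not mark strand. The authors deposited, for each of 43346 genes and each library, raw read counts, in whole numbers, and FPKM values, scaled by gene length and by a total per library 2.27 to 2.42 times the sum of the counts. The submitters' processing notes name STAR 2.5.2b, featureCounts and the build GRCm38, and whether counting used strand is not given in the sources used here. Of the gene IDs shared with GENCODE M21, 78.9% had the same position there.

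Genes averaging 25 counts or more were kept. TMM factors were computed, and the quasi-likelihood test of edgeR 4.0.16 in R 4.3.3 was run with no covariate, and p-values were adjusted by the Benjamini-Hochberg procedure over all 16877 genes (FDR). The FDR and fold limits and the count filter follow the study, which used a moderated test. Shares of a family's summed FPKM were compared by exact permutation. Confidence intervals cover the spread of these libraries only.

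The members and all gene lists were chosen with earlier results of these data known. The genes named are the 7 members, up to 4 called genes of each pathway list by size of change, genes that define the pathway (Il6, Il6st, Jak1, Jak2, Stat3, Stat5a, Stat5b, Nfatc1 and Bad), the 3 genes most like each member with a mean of at least 5 CPM, and defining markers. Some of the genes planned for are not reported here. Overlapping genes, Socs4, Mki67, Cxcl9, the heat shock genes and the endothelial, B cell and fibroblast genes beyond the defining markers were named after their values were seen. Promoter sequences came from RefSeq (GRCm38.p6), and no amino acid sequences were used here. The alternatives were DESeq2 1.42.0, limma 3.58.1 on log2 CPM and on log2 FPKM with pseudocounts of 0.1 and 1, other normalizations and filters, stricter limits, each library left out, replicate numbers as a block and the ending of the library name as a term. Leaving out aged sham 4 and aged bleo 4 together was chosen after seeing the data. The tests were tried on simulated counts first.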

Additional observations from a re-analysis of the deposited data

Results flagged for a closer look

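In 18 groups of values (the CPM of each gene and the share of Pim1 and of Socs3 in their families, in aged sham and in aged bleo), 3 libraries stood farther from the rest of their group than Dixon's 95% limit allows, where chance flags about 1 group in 20. Aged sham 1 was high for Cish at 20.8 CPM, beside 7.51 to 8.47 CPM in the other aged sham libraries, and the log2 fold change of Cish was -0.08 without it. Aged sham 4 was low for Socs3 at 881 CPM, beside 1124 to 1149 CPM, and still above every aged bleo library. Aged bleo 5 was high for Socs2 at 77.6 CPM, beside 61.2 to 65.8 CPM in the other aged bleo libraries, all of which were above aged sham.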

How the results depend on the processing

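Across 22 alternatives, no log2 fold change of the 7 genes reversed its direction. Socs2 (0.72 to 1.08) and Socs3 (-2.11 to -1.09) were called in all of them, and Pim2 and Cish in none. With limits of 0.05 on the FDR and 2 on the fold, 2 members, 17 pathway genes and 2158 genes in all were called, and Pim1 (-0.65) and Socs1 (-0.64) were not, since their folds are below 2. On log2(FPKM + 1), which compresses low values, 1785 genes were called, and Socs1 was at -0.54. With the ending of the library name as a term, 6394 genes and 48 pathway genes were called, Pim1 was at -0.37 and short of the limits, and Pim3 was at -0.60 and past them. In that fit the group effect rests on aged bleo 4 alone, which is assumed to vary like the other libraries, and the cause of the higher count was not tested. Pim3 was also called with aged sham 4 and aged bleo 4 both left out (-0.60).

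When libraries were left out singly, the members called numbered 2 to 4, Pim1 ranged from -0.74 to -0.52, Socs1 from -0.76 to -0.50 and Pim3 from -0.61 to -0.33. The fold change of Nfatc1, which was 0.01, was -0.0666 to 0.1041 with a library left out and -0.0669 with aged sham 4 and aged bleo 4 both left out.

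Replicate numbers 1 to 4 occur in both groups, and the libraries were not taken as pairs. The correlation of the deviations from the group means was 0.09, 0.06, -0.13 and 0.33 for the same-numbered libraries. For libraries of unlike number it was -0.21 to 0.25. So few values cannot settle whether the numbers pair the libraries. With the numbers as a block, in which aged bleo 5 has no partner and adds nothing to the group effect, 2 members were called, with Pim1 at -0.52 and Socs1 at -0.51, both under the fold limit. The mean difference in the Socs3 share between same-numbered libraries was -5.85 points (exact sign-flip test, p = 0.125, the smallest that 4 pairs allow), so this test could not pass.

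Pim1 and Socs1 lie so close to the 1.5-fold limit that 1 library decides their call. Pim2 had the fewest counts, 124 to 210 per library, and the 95% confidence interval of its log2 fold change was -0.48 to 0.16.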
